A study of Mus musculus with 6 samples.

Results

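The primitive streak and nascent mesoderm genes described here are T (brachyury), Mixl1, Eomes, Gsc, Evx1, Mesp1, Mesp2, Wnt3, Lhx1 and Tbx6. Their probes were found on the arrays by the RefSeq accession that the scanner files give for each probe. All 10 genes were found, with 12 probes, among 36873 genes and unnamed features and 55418 probes in all. Eomes and Tbx6 had a pair of probes each, and the other members had 1 probe each. The genes were named by their role in the embryo and not by a value measured here, but with earlier results of these arrays known.

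The study compared mouse embryonic stem cells in which Tet1, Tet2 and Tet3 were all knocked out (Tet triple knockout, TKO) with wild-type (WT) cells after differentiation. TET enzymes oxidise 5-methylcytosine in DNA. The cells were grown as embryoid bodies, floating aggregates whose cells take on fates of the germ layers, for 2 days in hanging drops and 8 more days in suspension, always without the self-renewal factor LIF. The groups were embryoid bodies of TKO line TKO_26, of TKO line TKO_29 and of 1 WT line, all on a mixed 129/C57BL6 background and all collected at 10 days of culture, with 2 arrays each. How the alleles were made is not stated in the labels. The series text calls the 2 arrays of a line technical replicas, so a p-value over arrays covers the spread within lines only and compares these lines, not genotypes. With lines as replicates there were 2 TKO lines and 1 WT line. All 6 arrays lay on 1 slide, with TKO arrays and WT arrays in separate columns, so slide position and genotype cannot be told apart.

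In the gastrulating mouse embryo, epiblast cells turn into mesoderm and endoderm as they pass through the primitive streak. WNT3 and NODAL, with BMP4 from the neighbouring extraembryonic tissue, induce the streak, and the T-box factors T and EOMES are among the first genes switched on in it. GSC and LHX1 mark its anterior end and the axial mesoderm, EVX1 its posterior part, MIXL1 the whole streak, and MESP1, MESP2 and TBX6 the mesoderm that leaves it. In embryoid bodies the same genes are known to come on in a wave within the first days of differentiation.

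The sequences before the start sites are shown because CpG dinucleotides are the sites of cytosine methylation on which TET enzymes act. Neither methylation nor TET binding was measured on these arrays. RefSeq windows of 250 bases upstream of the annotated start (build GRCm38.p6) were matched for 9 of the 10 genes. The windows of the members whose level differed from WT in at least 1 line by the calls given below, Gsc, T and Mesp1, and of Mesp2, the next protein-coding gene to Mesp1, are printed 5′ to 3′ on the gene's own strand with every CG in capitals.
Gsc, chr12:104473237-104473486, minus strand: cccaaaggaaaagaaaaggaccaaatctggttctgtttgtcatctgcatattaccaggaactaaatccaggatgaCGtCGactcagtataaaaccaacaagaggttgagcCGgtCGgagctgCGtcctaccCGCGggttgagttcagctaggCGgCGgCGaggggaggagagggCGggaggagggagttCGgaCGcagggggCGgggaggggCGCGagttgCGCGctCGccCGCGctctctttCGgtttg
T, chr17:8434173-8434422, plus strand: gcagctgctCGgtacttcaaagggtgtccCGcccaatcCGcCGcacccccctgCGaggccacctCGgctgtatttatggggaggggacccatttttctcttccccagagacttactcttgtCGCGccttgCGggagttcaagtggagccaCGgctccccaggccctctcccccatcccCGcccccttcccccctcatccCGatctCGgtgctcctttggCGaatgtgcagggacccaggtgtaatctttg
Mesp1, chr7:79793591-79793840, minus strand: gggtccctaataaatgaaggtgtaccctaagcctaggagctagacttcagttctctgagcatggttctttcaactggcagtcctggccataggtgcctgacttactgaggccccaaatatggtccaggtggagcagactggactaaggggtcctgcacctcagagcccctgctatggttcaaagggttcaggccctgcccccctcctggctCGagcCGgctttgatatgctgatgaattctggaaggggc
Mesp2, chr7:79810477-79810726, plus strand: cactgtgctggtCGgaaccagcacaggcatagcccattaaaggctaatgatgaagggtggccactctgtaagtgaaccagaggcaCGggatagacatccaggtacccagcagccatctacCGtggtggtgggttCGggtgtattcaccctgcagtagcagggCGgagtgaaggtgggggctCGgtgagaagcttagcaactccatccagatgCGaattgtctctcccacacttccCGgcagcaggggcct

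The Gsc window held 22 CG and the T window 14, against 2 in the Mesp1 window and 8 in the Mesp2 window. Over all 32851 RefSeq windows of this length the median was 6, with quartiles of 2 and 16. At least as many CG as in Gsc were held by 14.8% of windows, as many as in T by 29.4%, as many as in Mesp2 by 43.0% and as many as in Mesp1 by 81.2%. Of the other members Lhx1 held 26, Wnt3 22, Evx1 10, Eomes 8 and Tbx6 6. So the member that was higher in both TKO lines had a CG-rich window, and the member that was lower in both had a CG-poor one, which describes 2 genes and no more. Matches on either strand were also counted for the TCF/LEF core CTTTGA, the motif read by the nuclear partners of WNT signalling, and for the T-box site AGGTGTGA, with no overlap between the motifs in the member windows. The TCF/LEF core occurred in 13.8% of all windows, and among the members 2 times in Mesp1 and 1 time in T. The T-box site occurred in 1.12% of all windows and in 0 member windows. A match in letters is not a bound site.

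The levels below are log2 processed signals minus the array's 75th percentile, so 0 is the brightness of a fairly bright probe and each step of 1 is a doubling. A probe counted as detected on an array when the scanner software marked it as well above background. Of the 10 members, 9 had a probe detected on both arrays of at least 1 line and were tested. A difference was called at a Benjamini-Hochberg adjusted p under 0.05 over all 21420 genes and features tested with limma, together with a size of at least 2-fold. The spread between arrays of a line, as the SD of the difference between its arrays over all genes tested, was 0.62 in TKO_26, 0.39 in TKO_29 and 0.50 in WT. From 38.4% to 55.8% of spots were well above background per array, lowest on TKO_26 replicate 1, where the scanner software also gave a median coefficient of variation of 14.2% against 4.32% to 5.61% on the others.

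The Tet probes were read first as a check of the labels. The brightest Tet1 and Tet2 probes were called lower in both TKO lines, with log2 differences from WT of -1.02 in TKO_26 and -1.68 in TKO_29 for Tet1, and of -1.09 in TKO_26 and -1.90 in TKO_29 for Tet2. The brightest Tet3 probe differed by 1.05 in TKO_26 and -0.62 in TKO_29 and was not called, while a dimmer one was detected on 0 TKO arrays and 2 WT arrays. Another Tet3 probe was detected on 2 TKO arrays and 1 WT array, with differences of -1.26 in TKO_26 and -1.60 in TKO_29 that rest partly on background. A second Tet1 probe differed by -0.08 in TKO_26 and 0.23 in TKO_29. A probe outside the deleted part of a gene cannot check the deletion, and the labels do not say where these probes lie relative to it.

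Of the 9 members tested, Gsc was called higher and Mesp1 lower in both TKO lines. T was called higher in TKO_26 and was 1.54-fold higher in TKO_29, under the 2-fold limit. The other 6, Wnt3, Eomes, Tbx6, Evx1, Lhx1 and Mesp2, were called in neither line. The members thus moved in different directions, and 3 of 9 were called in TKO_26 (2 higher, 1 lower), where 13.4% of all genes were called (5.6% higher, 7.79% lower). In TKO_29 2 of 9 were called (1 higher, 1 lower), against 19.4% of all genes (8.16% higher, 11.2% lower). Both lines gave the same call for 2 of 9 members, against 10.6% of all genes (4.05% higher, 6.59% lower). These 2 contrasts share the WT arrays. The median log2 difference of the tested members was 0.26 in TKO_26 and 0.07 in TKO_29, beside 0.02 in TKO_26 and -0.09 in TKO_29 over all genes tested.

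**Figure D1:**
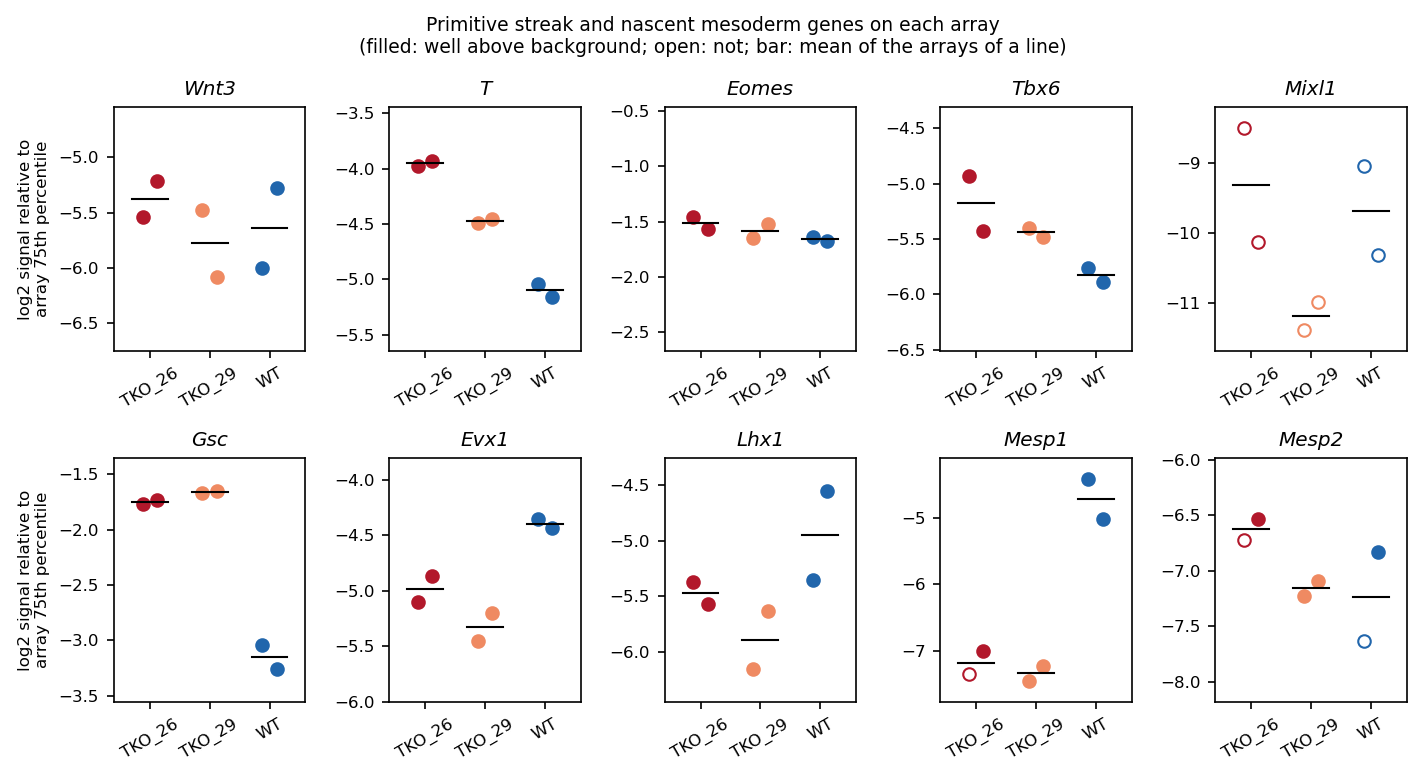
Level of each of the 10 genes on each of the 6 arrays, as log2 processed signal relative to the array's 75th percentile (y axis, scaled per gene), for TKO_26, TKO_29 and WT. Filled points were well above background, open ones were not, and bars are the means of the 2 arrays of a line. The Gsc points of both TKO lines lie between -1.77 and -1.65, above the WT points at -3.04 and -3.25, while the Mesp1 points of the TKO lines lie below those of WT.

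Wnt3 encodes the WNT ligand without which the mouse embryo forms no streak. Its level was -5.54 and -5.22 on the TKO_26 arrays, -5.47 and -6.08 on the TKO_29 arrays, and -6.00 and -5.28 on the WT arrays. The arrays of the 3 lines overlapped. The log2 difference from WT was 0.26 in TKO_26 (95% interval -0.61 to 1.13, adjusted p = 0.622, limma) and -0.14 in TKO_29 (-1.01 to 0.73, adjusted p = 0.765). The intervals reach past 2-fold in at least 1 direction, so these arrays neither showed a difference in Wnt3 nor bounded it to under 2-fold.

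Of the 3 T-box members, T was called higher in TKO_26, and Eomes and Tbx6 were called in neither line. T, whose product marks the streak, the nascent mesoderm and later the notochord and tail bud, had levels of -3.98 and -3.93 on the TKO_26 arrays, -4.49 and -4.45 on the TKO_29 arrays, and -5.04 and -5.16 on the WT arrays. All 4 TKO arrays lay above both WT arrays, with TKO_26 above TKO_29. T was 2.21-fold higher in TKO_26 than in WT (log2 1.15 ± 0.117 SE, 2 arrays per line, 95% interval 0.84 to 1.45, adjusted p = 0.00439, limma). In TKO_29 the log2 difference was 0.63 (95% interval 0.32 to 0.93, adjusted p = 0.0164), past the p threshold and under 2-fold. The adjusted p of T in TKO_29 ran up to 0.105 under the processing alternatives. The difference between the lines themselves, TKO_26 minus TKO_29, was 0.52 (0.22 to 0.82) with an adjusted p of 0.107, so T was not shown to differ between the TKO lines.

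EOMES acts in the streak upstream of definitive endoderm and of cardiac mesoderm, and is also made in trophoblast. The brighter Eomes probe read -1.46 and -1.57 on the TKO_26 arrays, -1.65 and -1.53 on the TKO_29 arrays, and -1.64 and -1.67 on the WT arrays. The 6 values lay within a narrow range and the lines overlapped. The log2 difference was 0.14 in TKO_26 (95% interval -0.17 to 0.46, adjusted p = 0.451, limma) and 0.07 in TKO_29 (-0.24 to 0.38, adjusted p = 0.675). Both intervals lie inside 2-fold in either direction. The dimmer probe read -4.39 and -4.41 in TKO_26, -4.18 and -4.05 in TKO_29, and -4.29 and -4.40 in WT, and its differences of -0.05 in TKO_26 (adjusted p = 0.796, limma) and 0.23 in TKO_29 (adjusted p = 0.212) were not called either. By the brightest probe of each tested member, Eomes had the smallest difference in each line, in TKO_29 close to that of Mesp2 (0.08).

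TBX6 directs mesoderm that has left the streak towards a paraxial fate. The brighter Tbx6 probe read -4.93 and -5.43 on the TKO_26 arrays, -5.40 and -5.48 on the TKO_29 arrays, and -5.76 and -5.89 on the WT arrays. All 4 TKO arrays lay above both WT arrays, but the TKO_26 arrays differed from each other by 0.50. The log2 difference was 0.65 in TKO_26 (95% interval 0.13 to 1.16, adjusted p = 0.0783, limma) and 0.39 in TKO_29 (-0.13 to 0.90, adjusted p = 0.178), and neither was called. The dimmer probe, detected on 1 array of TKO_26, 2 of TKO_29 and 1 of WT, differed by 0.41 in TKO_26 (adjusted p = 0.160, limma) and 0.21 in TKO_29 (adjusted p = 0.370).

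**Figure D2:**
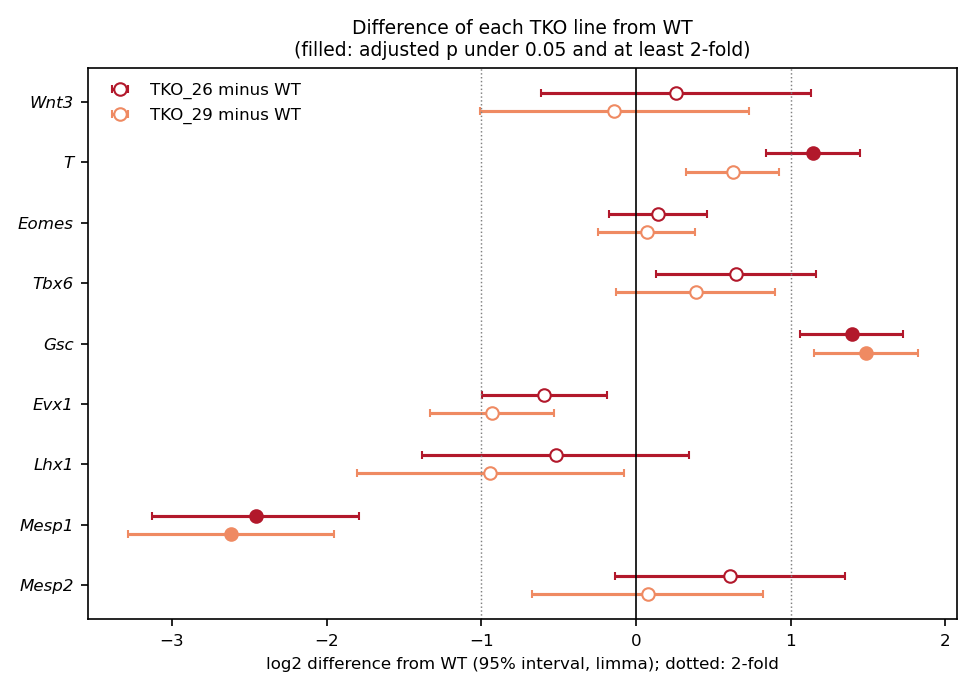
Log2 difference from WT (x axis) of the 9 tested members (y axis) in TKO_26 and TKO_29, with 95% intervals from limma over 2 arrays per line. Filled points passed an adjusted p under 0.05 and 2-fold (dotted lines). Gsc is filled on the right and Mesp1 on the left for both lines, T is filled for TKO_26, and the Eomes intervals are narrow around 0.

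Of the homeobox members, Gsc was higher, Evx1 and Lhx1 had lower values that were not called, and Mixl1 was not detected. Gsc, which encodes the goosecoid factor of the anterior streak and organiser, read -1.77 and -1.74 on the TKO_26 arrays, -1.67 and -1.65 on the TKO_29 arrays, and -3.04 and -3.25 on the WT arrays. The TKO arrays lay close together and more than 1 log2 step above both WT arrays. Gsc was 2.63-fold higher in TKO_26 than in WT (log2 1.40 ± 0.129 SE, 95% interval 1.06 to 1.73, adjusted p = 0.00343, limma). It was 2.80-fold higher in TKO_29 (log2 1.49, 95% interval 1.15 to 1.82, adjusted p = 0.0025). The TKO lines differed from each other by -0.09 (adjusted p = 0.676).

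The WT arrays gave Evx1, a homeobox gene of the posterior streak and tail bud, higher values than the TKO arrays did. It read -5.10 and -4.87 in TKO_26, -5.45 and -5.20 in TKO_29, and -4.35 and -4.44 in WT, without overlap. The log2 difference was -0.59 in TKO_26 (95% interval -0.99 to -0.19, adjusted p = 0.0543, limma). In TKO_29 it was -0.93 (-1.33 to -0.53), which passed the p threshold (adjusted p = 0.0123) at 1.91-fold, just under the size limit. Without TKO_29 replicate 2 the difference was -1.05 with an adjusted p of 0.0451, and Evx1 was then called lower in that line.

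LHX1, a LIM-homeodomain factor of the anterior streak and axial mesoderm that is also made in the intermediate mesoderm of the kidney, had the widest spread in WT of any tested member. It read -5.37 and -5.57 on the TKO_26 arrays, -6.16 and -5.63 on the TKO_29 arrays, and -5.35 and -4.55 on the WT arrays, which differed from each other by 0.80. The log2 difference was -0.52 in TKO_26 (95% interval -1.38 to 0.34, adjusted p = 0.321, limma) and -0.94 in TKO_29 (-1.81 to -0.08, adjusted p = 0.0827). Neither was called, and both intervals reach past 2-fold lower. Lhx1 and Gsc, both genes of the anterior streak, thus had differences of opposite sign, of which that of Lhx1 was not called.

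Mixl1, a paired-type homeobox gene switched on throughout the streak, was well above background on 0 of 6 arrays. Its signals were -8.49 and -10.13 in TKO_26, -11.39 and -10.98 in TKO_29, and -9.05 and -10.31 in WT. No difference is given for it, since values below background carry no order. Whether Mixl1 differed was not detectable with this probe.

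The bHLH genes Mesp1 and Mesp2 are neighbours on chromosome 7. MESP1 marks the first mesoderm to leave the streak, which gives rise to the heart and head mesoderm, and MESP2 sets the boundaries of somites. Mesp1 read -7.35 and -7.01 on the TKO_26 arrays, -7.45 and -7.23 on the TKO_29 arrays, and -4.42 and -5.02 on the WT arrays. The TKO arrays all lay far below both WT arrays, and Mesp1 was detected on 1 of 2 arrays of TKO_26, 2 of 2 of TKO_29 and 2 of 2 of WT. Since it was not well above background on 1 TKO_26 array, Mesp1 is given as at least 3.74-fold lower in TKO_26 than in WT. Its measured log2 difference was -2.46 ± 0.257 SE (95% interval -3.13 to -1.79, adjusted p = 0.00471, limma). In TKO_29 it was 6.14-fold lower (log2 -2.62, 95% interval -3.28 to -1.95, adjusted p = 0.00328). The TKO lines differed from each other by 0.16 (adjusted p = 0.719).

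Mesp2 was called in neither line. It read -6.72 and -6.53 in TKO_26, -7.23 and -7.09 in TKO_29, and -7.63 and -6.83 in WT, and was detected on 1 array of TKO_26, 2 of TKO_29 and 1 of WT. The TKO arrays overlapped those of WT. The log2 difference was 0.61 in TKO_26 (95% interval -0.14 to 1.35, adjusted p = 0.197, limma) and 0.08 in TKO_29 (-0.67 to 0.82, adjusted p = 0.854). Without WT replicate 2 the TKO_26 difference was 1.01 with an adjusted p of 0.0439. Since Mesp2 was not well above background on 1 TKO_26 array and 1 WT array, its differences rest partly on signals below detection. A difference between the adjacent genes was not tested.

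The arrays of the TKO lines lay wholly on one side of the WT arrays for 6 of 9 tested members, above for T, Gsc and Tbx6 and below for Evx1, Mesp1 and Lhx1. Such separation was seen for 50.5% of all genes tested (24.9% above and 25.5% below), so the count is not read as a result about the members. Without TKO_26 replicate 1 it was again 3 above and 3 below. With each line averaged to 1 value, 2 TKO lines against 1 WT line, 0 members and 0.906% of all genes (0.154% higher, 0.752% lower) were called with limma, and 2 members had an unadjusted p under 0.05 against 18.0% of all genes. These were Gsc (log2 1.44 ± 0.31 SE, adjusted p = 0.134) and Mesp1 (-2.54 ± 0.31, adjusted p = 0.0638), and T had 0.89 ± 0.38 (adjusted p = 0.347). Between TKO_26 and TKO_29, 0 members and 0.0% of all genes were called, and 1 member, T, had an unadjusted p under 0.05, against 22.4% of all genes.

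**Figure D3:**
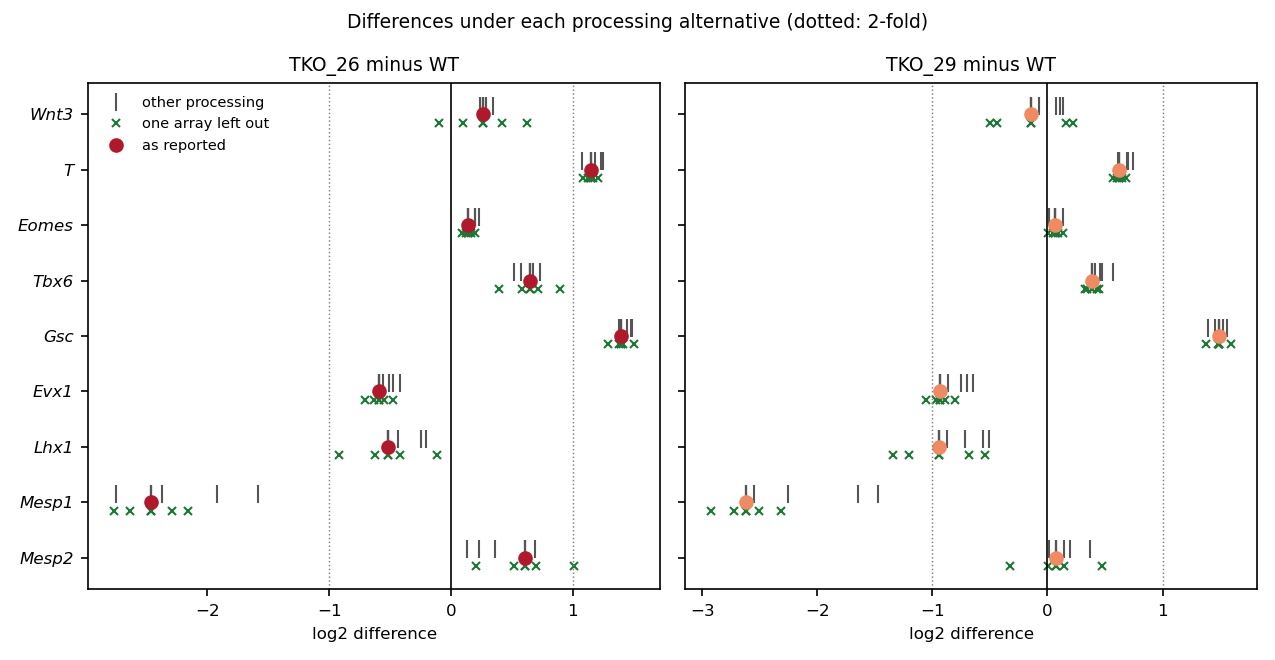
Log2 difference from WT (x axis) of the 9 tested members in TKO_26 (left) and TKO_29 (right) as reported (round points), under other scaling, background, filter or source choices (bars) and with 1 array left out (crosses). Gsc stayed between 1.29 and 1.59 and Mesp1 between -2.92 and -1.48, past 2-fold (dotted lines) wherever they were tested, while Wnt3 lay on both sides of 0.

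By the shape of their 6-array profiles, centred on each gene's mean, the 3 named genes nearest to Gsc among 13972 compared were Cep295nl, Parpbp and Phka2, at Euclidean distances of 0.134, 0.140 and 0.152 log2 units. Those nearest to Mesp1 were Cyp26b1, Prr18 and Pcnx2, at 0.384, 0.393 and 0.406. With 3 lines the profiles hold few independent points, so likeness here means a similar difference from WT and similar array scatter.

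Genes around the streak were then read from lists chosen by role, also with earlier results of these arrays known. "Rose" and "fell" below mean called in both TKO lines, which was so for 4.05% and 6.59% of all genes. Folds of genes in these lists and in the marker lists compare the mean of the TKO lines with WT. Of 11 tested ligands, co-receptors and effectors that induce the streak, 1 rose and 1 fell, with a median log2 difference over the line averages of 0.11 beside -0.04 for all genes. Gdf3, a NODAL-related ligand, rose 2.13-fold, and Bmp4, which induces posterior streak and mesoderm, fell 4.07-fold. Line by line, Bmp4 differed by -1.90 in TKO_26 (adjusted p = 0.00285, limma) and -2.15 in TKO_29 (adjusted p = 0.00186). Another Gdf3 probe, detected on all arrays, differed by 0.97 in TKO_26 and 0.18 in TKO_29. The count that rose was 0 without TKO_29 replicate 1 and without the filter on dim probes. It was 2 with the 75th percentile taken over all probes and with every probe tested on its own. Nodal itself differed by 0.19 in TKO_26 and 0.03 in TKO_29, and Wnt3a was detected on 0 arrays. Tdgf1, the NODAL co-receptor, differed by 0.97 in TKO_26 and 1.01 in TKO_29, and was called higher in TKO_29 only. Of the inducing ligands Bmp4 was thus lower, while Nodal, like Wnt3, was not called.

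Of 8 tested antagonists of these signals, 1 rose and 2 fell (median 0.70). Nog, a BMP antagonist, rose 2.05-fold, a call lost with any 1 array left out, without the filter on dim probes, with normexp, in the authors' matrix and with the replicate block. Sfrp5, a secreted WNT antagonist, fell 5.27-fold, and Cer1, which binds NODAL, BMP and WNT ligands, fell 2.66-fold. Lefty1 and Lefty2 of this list had the opposite sign to Cer1. They differed by 0.59 and 0.73 in TKO_26, and by 0.75 and 0.95 in TKO_29. All of these passed the p threshold but were under 2-fold. Of 10 Wnt-responsive genes of the streak and tail bud 8 were tested, and 2 rose and 2 fell (median 0.58). Sp8, a zinc finger factor downstream of WNT in the tail bud, rose 6.86-fold, and Nkx1-2, a gene of the caudal epiblast detected on 3 TKO arrays and 1 WT array, was at least 2.44-fold higher. Cdx2, a caudal-type gene of the posterior embryo and of trophoblast, was at least 7.22-fold lower, and Rspo3, a secreted enhancer of WNT signalling, fell 3.82-fold. Both directions were thus seen in this list. With any 1 TKO array left out, 1 gene of it rose and 2 fell.

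Genes of later mesoderm were mostly lower or not called. Of 12 presomitic and paraxial genes 10 were tested, 0 rose and 2 fell (median -0.67). They were Meox1, a somite homeobox gene that fell 10.6-fold, and Foxc2, a forkhead gene of paraxial mesoderm that fell 9.11-fold, and 1 gene fell without WT replicate 1. Lfng and Dll3 of the paraxial list had the opposite sign and were called in neither line. Lfng differed by 1.44 in TKO_26 (adjusted p = 0.0642, limma) and 1.34 in TKO_29 (adjusted p = 0.0579), past 2-fold. Dll3 differed by 0.81 in TKO_26 and 0.37 in TKO_29. A gene of this list rose with probes detected on all arrays, in the authors' matrix and with a variance trend. Of 16 genes of lateral, cardiac and blood-forming mesoderm, all tested, 0 rose and 12 fell (median -2.68). Hand2 was at least 92.0-fold lower and Tal1, the regulator of blood formation, at least 35.0-fold lower, while Myocd, a coactivator of cardiac and smooth muscle genes, fell 26.4-fold and Hand1 16.4-fold. Mesp1, whose descendants include cardiac mesoderm, thus had the same sign as most of this list, and Gsc and T had the opposite one. Fewer cells of a type and less RNA per cell cannot be told apart in such bulk RNA.

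Of 9 tested genes of the node, axial mesoderm and definitive endoderm, where GSC and LHX1 also act, 1 rose and 0 fell (median -0.21). It was Shh, at least 2.83-fold higher, and its call was lost in 5 of the alternatives, without a filter on dim probes, with probes detected on all arrays, with normexp, in the authors' matrix and without TKO_26 replicate 1. A gene of this list fell with quantile normalization, without WT replicate 2 and without TKO_29 replicate 2. Of 8 genes in the epiblast list 1 rose and 1 fell (median 0.42). Cdh1, E-cadherin of the epiblast, rose 54.9-fold. Cdh2, kept in this list although it is the N-cadherin of cells that leave the streak, fell 3.87-fold.

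**Figure D4:**
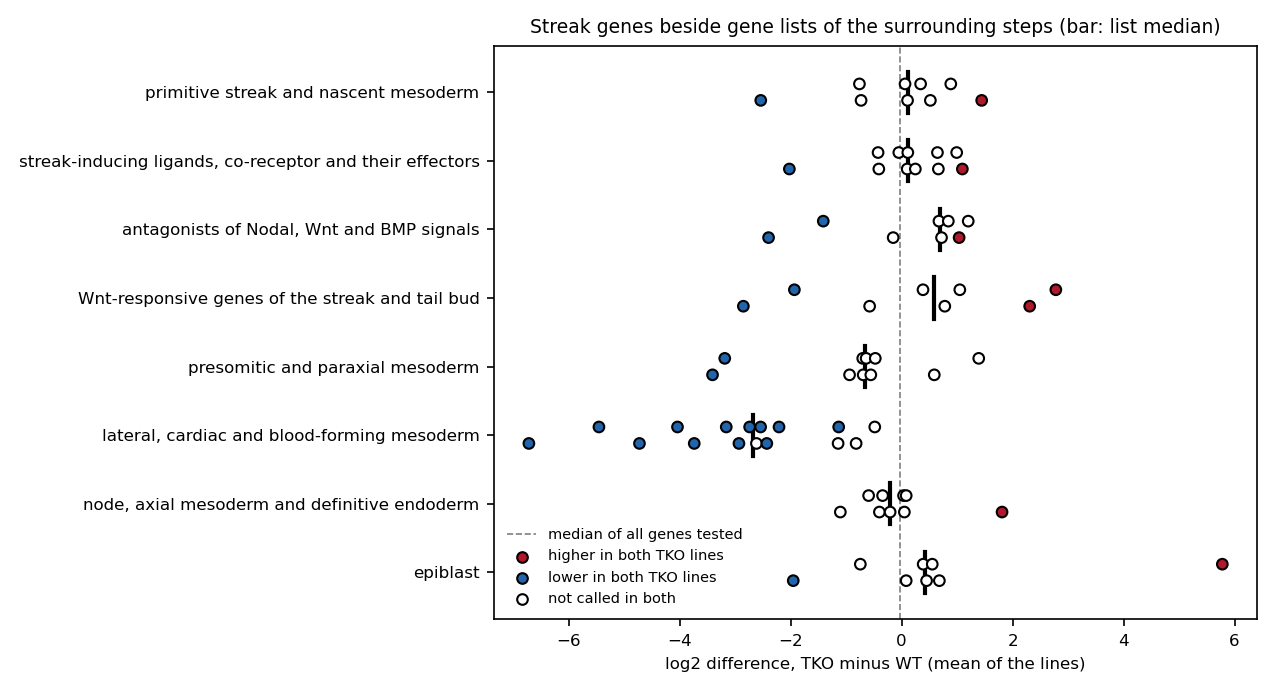
Log2 difference, TKO minus WT as the mean of the lines (x axis), of each tested gene of the streak list and of 7 lists around it (y axis), with list medians as bars and the median of all genes dashed. Red genes were called higher and blue genes lower in both TKO lines. The streak genes spread on both sides of 0 with a median of 0.11, and the lateral, cardiac and blood-forming list lies to the left with a median of -2.68.

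Markers of other cells that an embryoid body can hold were read beside these values. Summed levels are sums of linear signals in units of the array's 75th percentile. Of 8 visceral endoderm genes 7 fell, and the summed level of the 8 was 0.174 to 0.215 on TKO arrays against 3.27 to 3.43 on WT arrays. The largest differences were those of Afp (at least 22.6-fold lower), Cubn (at least 46.7-fold), Ttr (40.4-fold) and Apob (at least 12.5-fold). Of 6 pluripotency genes 3 rose and 0 fell, with a summed level of 6.22 to 7.76 on TKO arrays against 4.44 to 4.57 on WT arrays. These were Nanog (4.06-fold, although another Nanog probe differed by 0.18 in TKO_26 and -0.48 in TKO_29), Sox2 (2.33-fold) and Dppa3 (5.15-fold). Zfp42 had the opposite sign, -0.98 in TKO_26 and -0.93 in TKO_29, and was called in neither line. Esrrb, the brightest gene in the sum, differed by 1.01 in TKO_26 and 0.45 in TKO_29 and was called in TKO_26 only. Of 9 tested trophoblast genes, a cell type that also makes Eomes, 0 rose and 4 fell, namely Elf5, Cdx2, Prl3d1 and Hand1. The summed level was 7.55 to 9.77 on TKO arrays against 8.79 to 9.79 on WT arrays. Its brightest genes were Gcm1 and Krt8, both called in neither line. Gcm1 differed by 0.56 in TKO_26 and -0.18 in TKO_29, and Krt8 by -0.39 in TKO_26 and 0.06 in TKO_29. The 4 that fell were dimmer than these on every array, so the sum says little about them. For the intermediate mesoderm and kidney, which also make Lhx1, 1 of 4 tested genes fell, Osr1 at least 4.08-fold, with 0.127 to 0.178 on TKO arrays against 0.0858 to 0.0972 on WT arrays, and Pax8 was detected on 0 arrays. Wt1, the brightest gene of this list, had the opposite sign to Osr1. It was called higher in TKO_26 (log2 1.36), and its difference of 0.94 in TKO_29 was under the 2-fold limit. Of 8 fibroblast genes 3 fell (2.96 to 3.37 on TKO arrays against 4.44 to 5.17 on WT arrays). Of 7 tested neural genes 1 fell, Tubb3, with a summed level of 0.474 to 0.567 on TKO arrays against 0.575 to 0.675 on WT arrays. Sox1 and Pax6 of the neural list had the opposite sign, with all 4 TKO arrays above both WT arrays. In TKO_29 both were called higher, Sox1 3.74-fold and Pax6 at least 2.16-fold. In TKO_26 Sox1 was 2.14-fold and Pax6 at least 1.96-fold higher, and neither was called. The remaining neural genes tested were called in neither line. Of 4 tested T and NK cell genes, cells that also make Eomes, 1 rose, Cd8a at least 1.16-fold with 0 WT arrays detected (0.110 to 0.214 on TKO arrays against 0.163 to 0.182 on WT arrays), and 2 more were detected on 0 arrays. Another Cd8a probe, not tested, was detected on 0 TKO arrays and 1 WT array. The part of these other cell types in the differences of the streak genes was not tested.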

How the data were processed

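Cy3-labelled cRNA of embryoid bodies was measured on 1-colour Agilent arrays, 2 each for TKO_26, TKO_29 and WT, per the labels. The authors deposited scanner files that, per the file headers, come from Agilent Feature Extraction 10.5.1.1 and hold each spot's intensity as a processed, background-subtracted signal with no normalization between arrays. They also deposited log2 values in a matrix, with no processing stated in the labels. Its columns followed the log2 signal of their own arrays (r 0.995 to 1.00, medians 6.86 to 6.89), were not centred per gene and ran in the same direction. For TKO_29 replicate 1 the match was 0.9962 against 0.9963 with another array, which does not tell its column apart. The matrix was an alternative only.

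Control spots and outlier flags were left out, which removed 263 probes, and repeated spots were averaged. Probes were named through RefSeq accessions (GRCm38.p6), and 49.4% of probes had a symbol. Log2 signals were scaled per array to the 75th percentile of the 19173 probes detected (well above background) on all arrays. A probe was tested if detected on both arrays of any line, and the probe with the highest mean stood for its gene. Lines were compared with limma 3.58.1 (R 4.3.3, lmFit and eBayes on 6 arrays in 3 groups), and line averages in a second fit with 1 WT value assumed to vary like the TKO lines. The limited number of arrays sets the precision. Where some or all arrays of the dimmer group did not detect a probe, the fold is a bound, written "at least", taken against the lowest detected signal of each such array, or the probe's own signal if that was higher. Figures used matplotlib 3.10.9 and Python 3.11.15.

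The members and gene lists were chosen with earlier results of these data known. The genes named were every member, the Tet genes, per list the 4 largest differences among genes called in both TKO lines, and the 3 nearest profiles to each member called in both. Nodal, Wnt3a, Pax8, Tdgf1, Lefty1, Lefty2, Lfng, Dll3, Zfp42, Esrrb, Wt1, Thy1, Dcn, Sox1, Pax6, Gcm1 and Krt8 were added after their values were seen. Alternatives changed the filter, scaling, normalization, background correction (normexp with an offset of 50 on median spot and background signals), source of values, variance model, probe choice, replicate number as a block, and each array left out. Alternatives for the other gene lists were chosen after seeing the data.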

Additional observations from a re-analysis of the deposited data

How the results depend on the processing

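Over 15 alternatives, 524 of 532 single-member values kept their direction where called and their side of the threshold, 8 became called and none reversed. The count of members called was 2 to 4 in TKO_26 (3 to 4 with 1 array left out), 1 to 3 in TKO_29 (2 to 3), 1 to 2 in both lines (2 to 2) and 0 to 0 between TKO_26 and TKO_29. With probes detected on all 6 arrays it was 1 in TKO_29 and 1 in both lines, because Mesp1 and Mesp2 were then not tested. On line averages, where 0 members were called, 2 (Gsc and Mesp1) were called in the authors' deposited matrix (adjusted p 0.0129 and 0.00513) and 2 with a variance trend (0.0117 and 0.0283). With 1 array left out this count was 0 to 1, Mesp1 being called without TKO_26 replicate 1 (adjusted p 0.0151) and without TKO_29 replicate 1 (0.0261). The cause was not tested. Over all genes 2279 were called in both lines, and 1278 without a filter on dim probes, 1183 with probes detected on all 6 arrays, 1488 with normexp and 1671 to 2223 with 1 array left out. Without the filter the median of all genes was 0.30 in TKO_26 and -0.62 in TKO_29, so single differences there are relative to those shifts. Replicate numbers were shared across lines, but deviations of same-numbered arrays correlated at 0.17 (TKO_26 and WT), -0.16 (TKO_29 and WT) and -0.23 (TKO_26 and TKO_29), so the numbers share only a name. With the replicate block, 3 members were called in TKO_26, 2 in TKO_29, 2 in both lines, 0 between the TKO lines and 0 on line averages, and 2079 genes in both lines. Over the alternatives the adjusted p ranged from 0.000339 to 0.0354 for Gsc in TKO_26 and 0.000255 to 0.0290 in TKO_29, from 0.00224 to 0.0335 and 0.00136 to 0.0324 for Mesp1, and from 0.00166 to 0.0459 and 0.00866 to 0.105 for T. Signals near background limit Mixl1, Mesp2, the dimmer Tbx6 probe and the TKO level of Mesp1.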
